A study of Mus musculus with 2 samples.

Results

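The miR-1, miR-133 and miR-206 microRNAs were examined at their 7 mouse loci, Mir206, Mir133b, Mir1a-1, Mir133a-2, Mir1a-2, Mir133a-1 and Mir1b. The loci were found by matching the Ensembl identifiers of the deposited tables to GENCODE M21 symbols, and all 7 are among the 2202 microRNA genes of those tables. Small RNA from the gastrocnemius, the large calf muscle, had been sequenced from male B6CASTF1/J mice aged 36 days, which are first-generation hybrids of the C57BL/6J laboratory strain with CAST, a strain derived from wild mice. The labels number the males differently and mark the libraries as biological replicates 1 and 2, but a single donor identifier stands on both, and they are treated here as 2 animals. Replicate 1 had 4134880 counted reads and replicate 2 had 3219740. They form 1 group, and the labels give no treatment, mutation or second tissue, so the comparisons are among loci and between the 2 animals.

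These microRNAs are the classical microRNAs of striated muscle, induced by the myogenic and cardiac factors MyoD, Mef2 and SRF. A microRNA is cut from a hairpin, and the cut leaves a 5p and a 3p arm, of which one is usually kept and pairs with target messages through its seed, bases 2 to 8. miR-1 and miR-206 promote differentiation of muscle cells and repress the histone deacetylase gene Hdac4, whereas miR-133 is known in mouse myoblasts for promoting proliferation and repressing SRF. miR-206 is a skeletal muscle microRNA linked in mice to slow fibres and to reinnervation after nerve injury, while miR-1 and miR-133a are made in heart as well.

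The RefSeq sequences of the GRCm38.p6 build, which is mm10, are shown first because the counts below turn on which stretches the loci share. In the following 2 hairpins capitals mark the 5p and the 3p arm. Mir206 lies at chr1:20679010-20679082 and Mir133b at chr1:20682769-20682887, both on the plus strand.

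Mir206 hairpin: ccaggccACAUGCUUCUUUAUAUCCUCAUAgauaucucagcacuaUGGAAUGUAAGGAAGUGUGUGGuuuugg
Mir133b hairpin: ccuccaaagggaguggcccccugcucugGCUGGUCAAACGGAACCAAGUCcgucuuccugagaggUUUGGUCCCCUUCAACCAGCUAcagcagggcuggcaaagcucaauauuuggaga

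In the mature arms of these loci and in the 5p arm of Mir1a-1, capitals mark the seed. The arm of Mir1a-1 lies at chr2:180389057-180389079 on the plus strand. It is the only arm of that gene in the sequences used, and no other annotated hairpin holds it.

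miR-206-3p: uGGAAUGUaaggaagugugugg
miR-206-5p: aCAUGCUUcuuuauauccucaua
miR-133b-3p: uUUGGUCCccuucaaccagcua
miR-133b-5p: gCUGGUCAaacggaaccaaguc
miR-1a-1-5p: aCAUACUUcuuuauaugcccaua

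The 5p arms of miR-206 and miR-1a-1 are alike, with 20 of 23 positions identical. Counted from 1 at the 5′ end of miR-206-5p, the substitutions are G5A, C17G and U19C, and the first of them lies in the seed. The 3p arm of miR-206 stands further from the Mir1a-1 and Mir1a-2 hairpins, since the closest stretch in either differs from it at 4 bases. No locus among the annotated hairpins other than Mir206 holds miR-206-3p, even when it is shortened from its 3′ end to 11 bases. The set of RefSeq sequences used holds 5 mature sequences of these loci and no 3p arm of a miR-1 gene. Whether miR-1 shares the seed of miR-206-3p could therefore not be read from it. Among its 1738 mature sequences, 2 further microRNAs share that seed, miR-6349 and miR-6382. Their genes Mir6349 and Mir6382 had 0 counts in both libraries, and 3 counts, the limit that a count of 0 leaves, correspond to 0.726 CPM (counts per 1000000 counted reads) in replicate 1 and to 0.932 CPM in replicate 2.

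miR-133b-3p behaves otherwise, because its last base is the one that sets it apart. At its full 22 bases it occurs at 1 place among the annotated hairpins, and without the last base it occurs at 3, which are Mir133b, Mir133a-1 and Mir133a-2. A read of miR-133b-3p that ends 1 base short therefore matches all 3 loci equally well. miR-1a-1-5p stays at 1 place down to 15 bases. A place here is a stretch of the genome, and exact matches on either strand were searched.

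The deposited counts are read counts per microRNA gene, in a layout taken to leave reads aligned to several loci out of every gene, and how the aligner treated near matches is not given in the sources used here. The stretches that tell the loci apart were therefore mapped with windows of 22 bases, about the length of a mature microRNA. All 52 windows of the Mir206 hairpin and all 98 of Mir133b occur at 1 place. In Mir1a-1, 49 of 56 windows do (87.5%), and in Mir1a-2, 44 of 51 (86.3%).

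The shared windows of the miR-1a hairpins all lie in their 3′ part. They cover bases 45 to 72 of Mir1a-1 and bases 43 to 70 of Mir1a-2, a common stretch of 28 bases, whereas the 5p arm of Mir1a-1 lies at bases 10 to 32. Mir133a-1 and Mir133a-2 share stretches in both their 5′ and 3′ parts. In Mir133a-1 these span bases 5 to 28 and 38 to 68, leaving 34 of 47 windows at 1 place, and in Mir133a-2 they span bases 21 to 44 and 54 to 84, leaving 70 of 83. The longest stretch common to them is 31 bases. Counts of the miR-1a and miR-133a loci thus cover only the reads from the rest of each hairpin, and those from the shared stretches are taken to fall among the reads aligned to several loci.

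**Figure D1:**
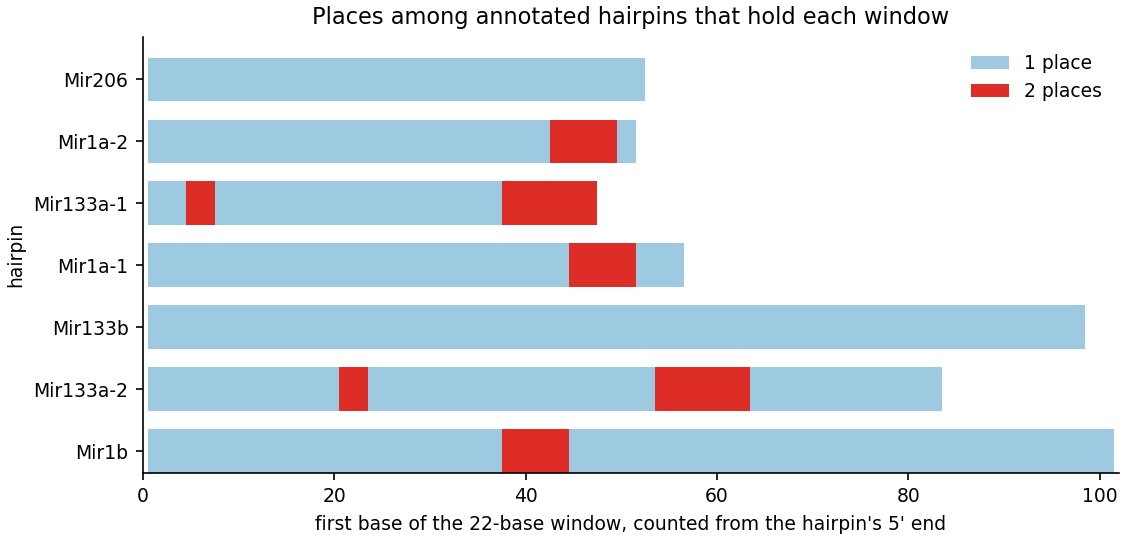
For each of the 7 hairpins (rows), the colour at each position on the horizontal axis (bases) says whether the 22-base window starting there occurs at 1 place or at 2 places among the annotated mouse hairpins. Mir206 and Mir133b have windows at 1 place alone, and the other 5 hairpins hold red stretches of 3 to 10 windows.

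The first question was how the counted reads were divided among the loci. Mir206 held 98.6% ± 0.0218 of the reads counted at the 7 loci (SD, n = 2), and the remaining 6 loci held the rest. Mir206 had 106820 counts in replicate 1 and 92373 in replicate 2. That is 27262 ± 2019 CPM (mean ± SD, n = 2), place 10 among all genes in both libraries. None of its windows is shared with another annotated hairpin, so by that search reads from its whole hairpin can be assigned. The rest of the genome was not searched. In whole muscle, fewer cells of a type and less RNA per cell cannot be told apart.

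At Mir1a-2, one of the miR-1a genes, 1301 reads were counted in replicate 1 and 1117 in replicate 2 (331 ± 22.8 CPM). Its paralog Mir1a-1, which encodes the same 3p microRNA, reached 51 in replicate 1 and 48 in replicate 2 (13.6 ± 1.82 CPM). Of the miR-133 genes, Mir133a-1 stood at 113 counts in replicate 1 and 70 in replicate 2 (24.5 ± 3.95 CPM). Mir133b, which has the Mir206 gene as its neighbour, had 52 in replicate 1 and 46 in replicate 2 (13.4 ± 1.21 CPM). Mir133a-2 reached only 13 counts in replicate 1 and 11 in replicate 2 (3.28 ± 0.193 CPM). Mir1b, annotated on the strand opposite Mir1a-2, had 6 in replicate 1 and 7 in replicate 2 (1.81 ± 0.511 CPM). In both libraries Mir206 thus stood far above the rest, Mir1a-2 was next, and the other 5 loci were at low counts.

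The order of the means was Mir206, Mir1a-2, Mir133a-1, Mir1a-1, Mir133b, Mir133a-2 and Mir1b. Mir1a-1 and Mir133b differed by less than their SD and changed places between the libraries. Every other pair of neighbours in the order kept its direction in both libraries. The lowest pair, Mir133a-2 and Mir1b, overlapped within counting error. In replicate 1 they stood at 3.14 CPM (exact Clopper-Pearson 95% interval 1.67 to 5.38) and 1.45 CPM (0.533 to 3.16). All intervals here cover counting error only.

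**Figure D2:**
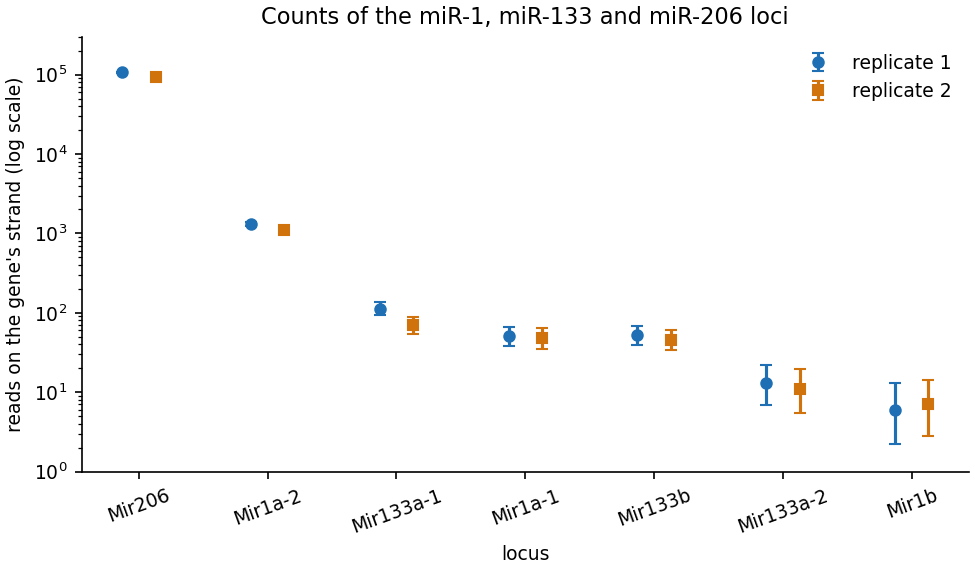
Reads counted on the gene's strand (vertical axis, log scale) for each locus, with circles for replicate 1, squares for replicate 2 and bars for exact Poisson 95% intervals. Mir206 stands at 106820 and 92373 reads, far above Mir1a-2 at 1301 and 1117, and the intervals of Mir1a-1 and Mir133b overlap.

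The counts were also divided by the number of windows at 1 place, which follows the annotated length of a hairpin, flanks outside the mature arms included, as well as what it shares. Mir206 reached 524 ± 38.8 CPM per window and Mir1a-2 reached 7.52 ± 0.519. Mir133a-1 had 0.722 ± 0.116, Mir1a-1 had 0.278 ± 0.0371 and Mir133b had 0.137 ± 0.0123 CPM per window. Mir133a-2 and Mir1b had 0.0469 ± 0.00275 and 0.0193 ± 0.00544. Mir1a-1 and Mir133b had nearly equal counts, and their difference per window comes from the divisor, 49 windows in a hairpin of 77 bases for Mir1a-1 and 98 in one of 119 bases for Mir133b.

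The loci lie in 3 pairs of neighbours, and the members of each pair were compared next. Mir206 and Mir133b are 3686 bases apart on the plus strand of chromosome 1, within exons of the noncoding RNA Gm28653, and RefSeq has both within Lincmd1, which starts at the same base. Mir206 exceeded Mir133b 2010.5-fold, a log2 ratio of 10.97 ± 0.02 (SD, n = 2). Per window at 1 place the ratio was 3828-fold. Unlike in the other pairs, both hairpins here have windows at 1 place alone, yet reads of miR-133b-3p that lack the last base match several loci.

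Mir1a-1 (180389048 to 180389124) and Mir133a-2 (180398379 to 180398482) lie 9254 bases apart on the plus strand of chromosome 2. GENCODE M21 places no other gene over either, while RefSeq has both within the noncoding RNA Mir1a-1hg. Mir1a-1 exceeded Mir133a-2 4.01-fold (log2 ratio 2.00 ± 0.10), from 51 against 13 counts in replicate 1 and 48 against 11 in replicate 2.

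Mir1a-2 (10785481 to 10785552) and Mir133a-1 (10782909 to 10782976) lie 2504 bases apart on the minus strand of chromosome 18, in an intron of the noncoding host Mir133a-1hg and opposite an intron of Mib1, a ubiquitin ligase of the Notch pathway. Mir1a-2 exceeded Mir133a-1 13.5-fold (log2 ratio 3.75 ± 0.33). In all 3 pairs the gene of the miR-1 and miR-206 family was thus counted above its miR-133 neighbour in both libraries. Per window at 1 place the ratio was 5.91-fold for Mir1a-1 over Mir133a-2 and 10.5-fold for Mir1a-2 over Mir133a-1. The miR-133a hairpins share stretches in both their 5′ and 3′ parts, and the miR-1a hairpins only in their 3′ part. Counts in these pairs therefore cover unlike parts of the hairpins, and how far that bears on the direction was not tested. With 2 libraries the smallest p of an exact sign-flip test, two-sided, is 0.5, so none of the 9 ratios was tested.

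Paralogs at different chromosomes were compared in the same way. Mir1a-2 exceeded Mir1a-1 24.1-fold, a log2 ratio of 4.59 ± 0.09, and 27.1-fold per window at 1 place. For miR-133a the excess of Mir133a-1 over Mir133a-2 was 7.18-fold (log2 ratio 2.84 ± 0.32), or 15.3-fold per window. That rise comes mainly from the divisor, 34 windows for Mir133a-1 and 70 for Mir133a-2. On the scale of counts both chromosome 18 genes thus exceeded their chromosome 2 paralogs in both libraries. The miR-133b gene was below Mir133a-1, with a log2 ratio of −1.11 in replicate 1 and −0.60 in replicate 2 (mean −0.86 ± 0.36). The counting intervals of that last ratio, −1.62 to −0.63 and −1.18 to −0.05, lay below 0 in each library. Mir206 exceeded Mir1a-2 82.4-fold (log2 ratio 6.36 ± 0.01) and the other 6 loci together 70.3-fold (log2 ratio 6.14 ± 0.02).

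Mir1b spans bases 10785446 to 10785567 on the plus strand of chromosome 18 and encloses Mir1a-2, which runs the other way. Its 122 bases contain the reverse complement of the whole 72-base Mir1a-2 hairpin, so the strand of a read decides between the genes. Reads on the strand of Mir1b numbered 6 of 1307 at the joint locus in replicate 1 (0.459%, exact 95% interval 0.169 to 0.996) and 7 of 1124 in replicate 2 (0.623%, interval 0.251 to 1.28). Mir1a-2 exceeded Mir1b 173-fold (log2 ratio 7.43 ± 0.30).

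The deposited tables hold 3 count columns, for reads on the gene's strand, on the opposite strand, and regardless of strand. Mir1a-2 and Mir1b mirror each other in these columns. The opposite-strand column of Mir1b had 1301 reads in replicate 1 and 1117 in replicate 2, the same numbers as the same-strand column of Mir1a-2, and in the column that ignores strand both genes had 0. There their reads count as ambiguous, and the 1307 reads of replicate 1 make up 0.132% of all ambiguous reads of that column, and the 1124 of replicate 2 make up 0.135%. The other 5 loci had 0 reads on the opposite strand and equal values in the remaining columns. A total of 35 genes had counts on their strand in at least 1 library and 0 in both libraries when strand was ignored.

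**Figure D3:**
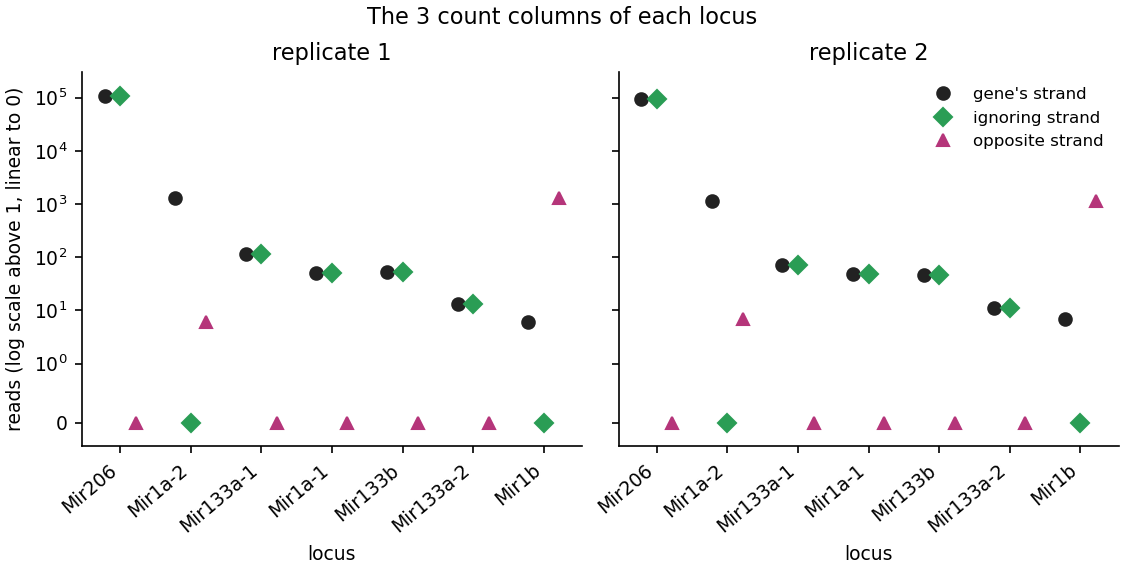
The 3 count columns of each locus in replicate 1 (left) and replicate 2 (right), with reads on a log axis that turns linear between 1 and 0. Mir1a-2 and Mir1b drop to 0 where strand is ignored, and the opposite-strand value of Mir1b equals the same-strand value of Mir1a-2, 1301 in replicate 1 and 1117 in replicate 2.

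The reads aligned to several loci were set beside the loci. They numbered 13878974 in replicate 1 and 12282813 in replicate 2, which is 70.4% of the reads of replicate 1 and 73.3% of those of replicate 2. This pool was 129.6 ± 2.15 times the counts of all 7 loci together (SD, n = 2), 131 ± 2.15 times those of Mir206 and 10832 ± 232 times those of Mir1a-2. If 0.751% ± 0.0123 of it came from miR-1a, the summed reads of the Mir1a loci would equal the count of Mir206, and for miR-133a the share is 0.760% ± 0.0123. What the pool holds is not given per gene, and 1047 of the 2202 annotated hairpins (47.5%) share at least 1 window of 22 bases with another place. The counts therefore do not rank miR-1a or miR-133a, as mature microRNAs, against miR-206. Reads of miR-133b-3p that lack the last base match several loci and may lie in the pool too. Mature miR-133b is thus not ranked against miR-206 either.

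The loci were then placed among all 2202 genes by mean CPM. Mir206 (place 10) lay below Mir23a at 32620.4 ± 3687 CPM and above Mir99a at 23715 ± 2840.1 CPM. Mir206 lay below Mir23a in both libraries, and above Mir99a by 25834 against 25723 CPM in replicate 1 and 28690 against 21706 CPM in replicate 2. The most abundant gene was Mir378a at 130385 ± 10039 CPM.

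Mir1a-2 took place 106, between Mir92-1 (334 ± 13.7 CPM) and Mir484 (319 ± 15.6 CPM), and differed from both by less than its SD of 22.8. Mir133a-1 was at place 224 between Mir32 and Mir598, at 25.8 ± 4.49 and 24.1 ± 12.5 CPM. Mir1a-1 and Mir133b followed at places 248 and 249, between Mir92-2 (14.4 ± 0.232 CPM) and Mir106a (13.3 ± 10.5 CPM), and Mir133a-2 and Mir1b at places 298 and 336. No count was recorded for 1563 of the genes.

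**Figure D4:**
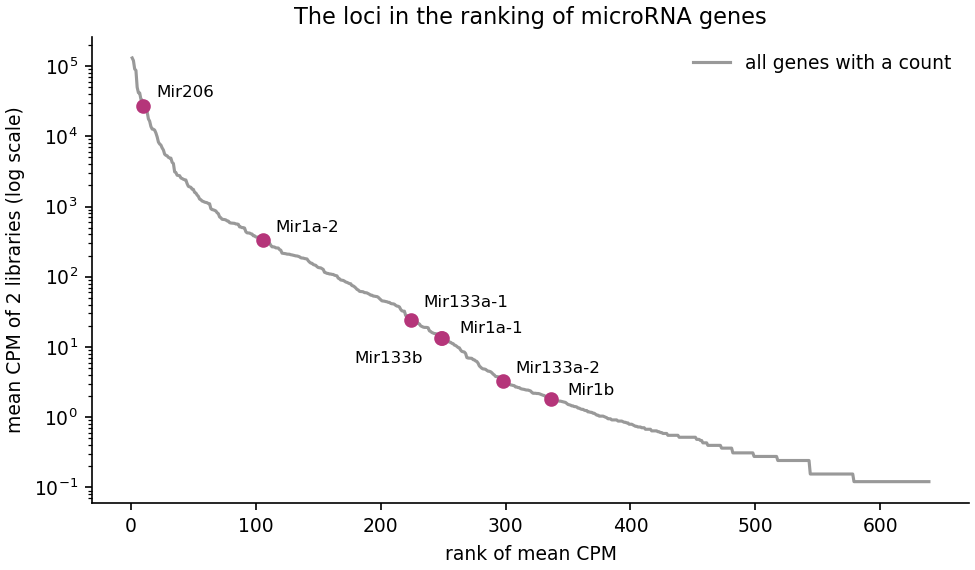
Mean CPM of 2 libraries (vertical axis, log scale) against rank for every gene with a count (grey line), with the 7 loci as points. Mir206 lies at rank 10, Mir1a-2 at rank 106, and the remaining members between ranks 224 and 336.

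The other microRNAs typical of muscle gave a scale for these values. How many of their reads align to several loci was not examined, so they are compared as counts alone. Mir486, which lies in an intron of the ankyrin gene Ank1, had 881 ± 96.3 CPM, above Mir1a-2. Mir499, in the myosin gene Myh7b, had 266 ± 27.4 CPM and Mir208b, in the slow myosin gene Myh7, had 109 ± 8.85 CPM. The cardiac Mir208a had 6.56 ± 0.385 CPM, and Mir3107, opposite Mir486, had 45.1 ± 37.1 CPM. The 7 loci held 2.76% ± 0.204 of counted reads, against 0.131% ± 0.00959 for these 5 genes, and without Mir206 the other 6 loci held 0.0387% ± 0.00226. The tissue label was checked against markers. All 10 striated muscle microRNAs listed, 6 of which are loci described here, had at least 10 counts in both libraries. They held 2.89% ± 0.217 of counted reads, most of it from Mir206 alone, at 2.58% in replicate 1 and 2.87% in replicate 2. Markers of other cells met the same minimum. Endothelial Mir126a held 9.06% ± 0.737, the 2 smooth muscle genes Mir143 and Mir145a held 8.95% ± 0.590, the 4 leukocyte genes held 0.188% ± 0.00369 and the 2 red cell genes held 0.0399% ± 0.000802. Liver Mir122 held 0.00126% ± 0.00112, and of 7 epithelial genes 2 met the minimum, with 0.0227% ± 0.00153 for the list. The 6 neuronal loci listed, copies of Mir124a and Mir9, were at 0, which checks nothing here, since the copies of each share a mature microRNA. How far other cells bear on the counts was not tested.

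The last comparison was between the 2 animals, as log2 ratios of replicate 1 over replicate 2 in CPM + 1 after TMM scaling, over the 261 genes that averaged 10 CPM or more. Each ratio rests on 1 library a side and has no replicate check. Mir206 had a ratio of −0.32, Mir1a-2 of −0.31, Mir133b of −0.33 and Mir1a-1 of −0.41, so that 4 of the 5 members tested were lower in replicate 1, and Mir133a-1 had a ratio of 0.16. Among all genes tested 44.1% were lower in replicate 1. The median ratio was −0.32 over the 5 members and 0.05 over all genes tested.

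None of the 5 members was past 2-fold, against 5.36% of the genes tested. Mir206 had 25834 CPM in replicate 1 and 28690 CPM in replicate 2, a difference beyond counting error on this scale (interval of the log2 ratio of scaled counts −0.33 to −0.31). Mir1a-2 had 315 CPM in replicate 1 and 347 CPM in replicate 2, also beyond counting error (interval −0.42 to −0.19). The intervals of Mir133b (−0.95 to 0.25), Mir1a-1 (−1.04 to 0.16) and Mir133a-1 (−0.28 to 0.61) held 0. The ratios of Mir133a-2 and Mir1b, below the minimum, were −0.22 and −0.48, with intervals that also held 0. Relative to the total of counted reads, which moves the median of all genes tested to 0.21, Mir206 had a ratio of −0.15 and Mir1a-2 of −0.14, and the same 4 members were lower in replicate 1. Relative to all reads, which moves that median to 0.32, the ratio was −0.03 for Mir206 and −0.01 for Mir1a-2. On that scale the interval of Mir1a-2 held 0 (−0.13 to 0.10), that of Mir206 was −0.04 to −0.01, and that of Mir133a-1 lay above 0 (0.01 to 0.91).

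The genes nearest to Mir206 in this ratio, a likeness over 2 libraries only, were Mir701 (−0.31), Mir3068 (−0.31) and Mir378a (−0.32). Mir499 (−0.38), Mir486 (−0.39) and Mir208b (−0.33) had ratios of similar size, whereas Mir3107 had 1.70.

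**Figure D5:**
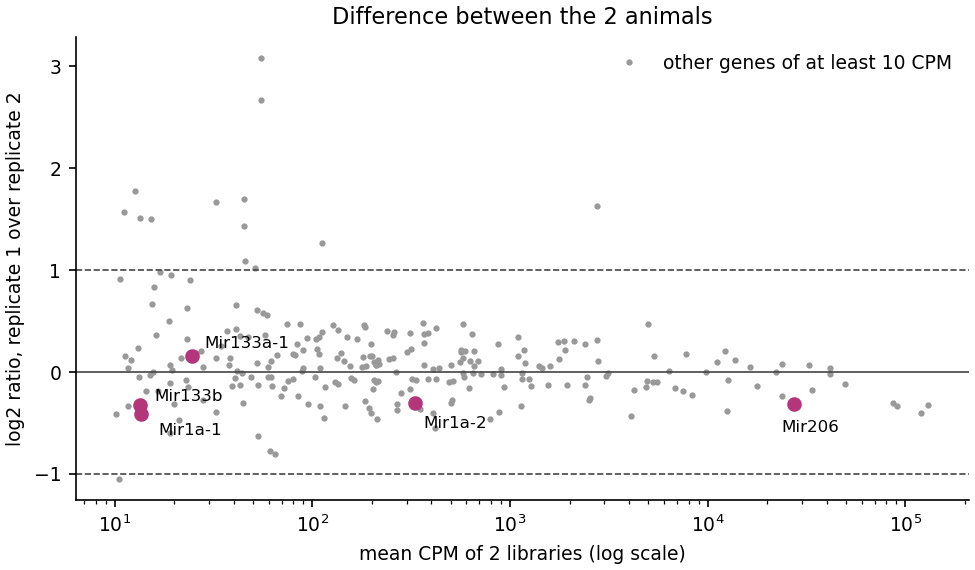
Log2 ratio of replicate 1 over replicate 2 (vertical axis) against mean CPM (horizontal axis, log scale) for 261 genes of at least 10 CPM, with dashed lines at 2-fold. Mir206, Mir1a-2, Mir133b and Mir1a-1 lie between −0.41 and −0.31, Mir133a-1 lies at 0.16, and all 5 are inside the dashed lines.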

How the data were processed

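Small RNA libraries of total RNA, of the size class below 30 given in the labels, were sequenced from the gastrocnemius of 2 animals. The authors deposited whole-number read counts for 2202 microRNA genes per library, with assembly mm10 and annotation M21 per the deposited descriptions. Which aligner and counter made them is not given in the sources used here. Library sizes leave out the 4 rows without a gene name. Of 19726010 reads in replicate 1 and 16764463 in replicate 2, 4134880 (20.96%) in replicate 1 and 3219740 (19.2%) in replicate 2 were counted on a gene's strand. The layout implies that reads aligned to several loci are in no gene's count. CAST alleles that differ from mm10 are not analysed here.

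CPM, ratios between the 9 fixed pairs of loci (counts + 0.5) and exact 95% intervals were computed with scipy 1.17.1. PCR copies are not independent molecules, so intervals and the 3 counts that a count of 0 allows cover counting error only. The spread between the animals includes technical variation. Replicate ratios used TMM factors of edgeR 4.0.16 (1.06 for replicate 1 and 0.944 for replicate 2) and, as an alternative, size factors of DESeq2 1.42.0. The TMM scaling and the formula of the replicate ratio were tested on simulated counts. Windows were searched in GENCODE M21 hairpins, since no genome sequence was used. The set of RefSeq sequences used here had entries for 3 of the 7 loci, which says nothing of RefSeq as a whole. Besides the members, genes were named as rank neighbours, as the 3 nearest in ratio to Mir206, as the most abundant gene, as muscle microRNAs, as cell markers or by a shared seed. The members and lists were chosen with earlier results of these data known.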

Additional observations from a re-analysis of the deposited data

How the results depend on the processing

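The directions of the 9 ratios between loci held with counts + 1 and with no pseudocount, and without either replicate. In the column that ignores strand, which holds 0 for Mir1a-2 and Mir1b, the log2 ratio was −7.48 for Mir1a-2 over Mir133a-1, −6.64 for Mir1a-2 over Mir1a-1, 0 for Mir1a-2 over Mir1b, 17.6 for Mir206 over Mir1a-2 and 8.95 for Mir206 over the other 6 loci. The share held by the 7 loci was 3.64% in that column, 0.554% of all reads, 3.18% of counted reads without Mir378a, and 2.62% to 2.91% with 1 replicate left out. With ambiguous reads added, the reads outside single genes were 139 times the counts of the loci.

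With no minimum, 41 genes were past 2-fold between the replicates in place of 14, and with a minimum of 100 CPM, 2 genes were past it and 2 members, both of those tested, were lower in replicate 1. Under total counts, DESeq2 size factors, all reads or other pseudocounts, 4 of 5 members were lower in replicate 1, but relative to all reads the log2 ratio shrank to −0.03 for Mir206 and −0.01 for Mir1a-2, against −0.32 and −0.31 with TMM. Of all windows, 90.4% occurred at 1 place, 84.7% with 18 bases, 93.0% with 24, 86.1% with 1 mismatch allowed, and 90.4% in all transcripts, a search added after the data were seen. With 1 mismatch Mir206 kept 52 of 52 windows and Mir133b 95 of 98. The windows that Mir133b lost all overlap the miR-133b-3p arm and include the window that is that arm in full. The 95 of 98 therefore does not show that reads of miR-133b-3p can be assigned when a mismatch is allowed. With exact windows of 18 bases Mir133b also had shared windows, and Mir206 had none. A search of the whole genome was not run. No paired analysis was possible because there is 1 group. The counts of 6 to 13 at Mir1b and Mir133a-2 limit their ratios.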
